A study of Mus musculus with 27 samples.

Results

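The 8 genes described here are Fabp6, Slc10a2, Slc51a, Slc51b, Fgf15, Nr1h4, Nr0b2 and Slc10a6. All but Slc10a6 carry bile acids across the wall of the ileum or belong to the FXR circuit that senses them. Slc10a6 is a relative of the uptake carrier Slc10a2. All 8 were chosen by name, and each matched 1 of the 52550 genes in the count table. The libraries are poly-A RNA sequencing of ileum, cecum and colon from male C57BL/6 mice that were 6 weeks old at the start, with the aim of following transcripts along the gut under arsenic in food. After 7 days of acclimatisation the mice ate feed for 60 days. Control mice received standard feed, and the test mice received the same feed with arsenic at 30 µg per g. Of that arsenic, 72.7% was sodium arsenite, 19.0% sodium DMA, 7.3% sodium arsenate and 1.0% sodium MMA, the last being the monomethylated and DMA the dimethylated form. There were 4 control and 5 arsenic libraries of ileum, 4 and 5 of cecum, and 5 and 4 of colon. The 27 libraries held between 15717600 and 18208518 counted reads. Replicate numbers from the labels name the libraries, which are treated as separate samples. The labels do not say whether RNA of several mice was pooled, so p-values measure the spread between these libraries.

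Bile acids are made in the liver, help to absorb fat in the small intestine and are taken back up mainly in the last part of the ileum. Slc10a2 (ASBT) brings them in from the lumen with sodium, Fabp6 (the ileal bile acid binding protein) holds them in the enterocyte, and Slc51a with Slc51b (the OSTα and OSTβ chains of 1 carrier) exports them to the blood. Inside the cell bile acids activate FXR, the nuclear receptor encoded by Nr1h4, which raises Fabp6, Slc51a, Slc51b, Fgf15 and Nr0b2. FGF15 is a hormone that travels to the liver and lowers bile acid synthesis, and Nr0b2 encodes SHP, a repressor. Slc10a6 (SOAT) is a relative of Slc10a2 that carries sulphated steroid hormones.

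FXR is known to bind an inverted repeat with a spacer of 1 base, AGGTCANTGACCT, so the 300-base promoter windows of RefSeq (GRCm38.p6, 250 bases before and 50 after the start) were searched for it. The repeat is its own reverse complement, so a single scan reads both strands. A window was found for 7 of the 8 genes, Fgf15 having none in the table. The Fabp6 window held 2 matches that differed from the repeat at 2 positions, the closest among these genes. Of 32851 promoter windows, 374 (1.14%) held a match with at most 2 mismatches, and 4 (0.0122%) held 2 or more such matches. The nearest matches of Slc51a and Slc51b had 3 mismatches, a level that 11.4% of all windows reached or bettered. In the windows of Slc10a2, Nr1h4, Nr0b2 and Slc10a6 the nearest match had 4 mismatches, a level that 56.4% of windows reached or bettered. The bases before the start site are shown 5′ to 3′ on the strand of the gene, with the nearest matches in capitals. All 3 lie on the minus strand. The Fabp6 stretch is chr11:43601563-43601812, that of Slc51a chr16:32487923-32487982 and that of Slc51b chr9:65422925-65422984.
Fabp6: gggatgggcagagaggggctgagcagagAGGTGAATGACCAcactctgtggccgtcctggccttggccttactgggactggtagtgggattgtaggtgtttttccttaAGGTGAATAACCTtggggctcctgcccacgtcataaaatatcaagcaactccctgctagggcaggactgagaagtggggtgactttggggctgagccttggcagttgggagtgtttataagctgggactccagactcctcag
Slc51a: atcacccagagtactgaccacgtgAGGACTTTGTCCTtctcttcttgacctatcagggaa
Slc51b: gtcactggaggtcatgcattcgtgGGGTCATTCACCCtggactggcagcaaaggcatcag
The match of Fabp6 nearer to the gene ends 129 bases before the start site and the other 209 bases before it, against 66 bases for Slc51a and 174 for Slc51b. A match of letters is a description of these windows and says nothing of binding.

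Levels below are CPM (reads of a gene scaled to the same library total and between libraries by TMM), and changes are log2 differences from edgeR's quasi-likelihood test with Benjamini-Hochberg adjusted p-values over all genes tested. A gene was called at an adjusted p under 0.05, and genes with too few counts to be kept by edgeR's filter were not tested. Some libraries stood apart before any comparison of feeds. Ileum arsenic 14 and 15 had far less Fabp6 than the other ileum libraries. To place the ileum libraries along the gut without these genes, a position score was formed as the mean log2 CPM of 6 distal ileum markers (Cubn, Amn, Mme, Nts, Pyy and Gcg) minus that of 9 proximal ones (among them Gata4, Lct and Fabp1). Ileum arsenic 12, 14 and 15 scored -0.62, -0.50 and -0.57, below every control library, and arsenic 11 and 13 scored 2.32 and 2.45, above every control. The controls lay between 0.40 and 1.79. Over the 9 ileum libraries the score followed its proximal part closely (r = -0.966). In arsenic 15 the distal part was 7.02, above the 6.47 to 6.79 of the controls. Its proximal part was 7.59, against 5.01 to 6.36 in the controls, so its low score came from high proximal markers. Arsenic 14 differed, with a distal part of 5.89, below the controls, and a proximal part of 6.38, next to the highest control. Arsenic 12 had a distal part of 6.55, within the control range, and a proximal part of 7.17. The mean score was 0.62 ± 1.62 (SD, n = 5) on arsenic and 0.95 ± 0.63 (SD, n = 4) on control feed, a difference of -0.33 that an exact two-sided permutation test did not separate from 0 (p = 0.722, with 0.00794 the smallest p that the group sizes allow). The arsenic libraries thus lay outside the control range on both sides. In bulk tissue, fewer cells of a type and less RNA per cell cannot be told apart.

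**Figure D1:**
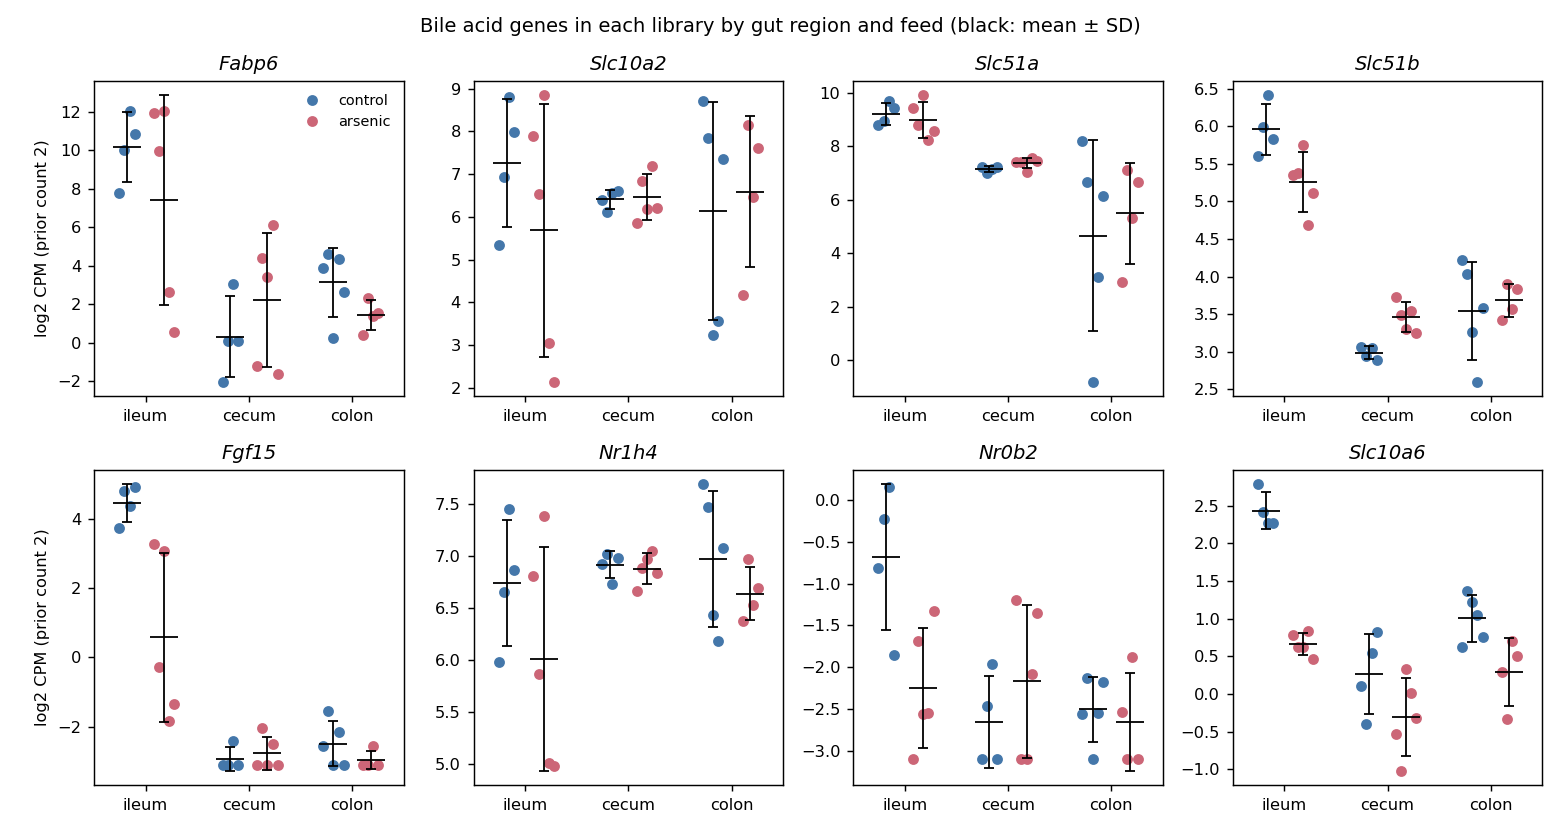
Log2 CPM (prior count 2, y axis) of the 8 genes in each of the 27 libraries by gut region (x axis) and feed, with points for libraries and black bars for the mean ± SD. Fabp6 and Fgf15 were highest in ileum, Slc10a2 and Nr1h4 did not pass a test between regions, and the spread of Slc10a2, Fabp6 and Nr1h4 in the arsenic ileum was wide.

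Along the gut on control feed, Fabp6, Fgf15, Slc51b and Slc10a6 were lower outside the ileum, while Slc10a2 and Nr1h4 did not pass the test in either region. Compared with the ileum, 4 of the 7 genes tested were lower in the cecum (Fabp6, Slc51b, Fgf15 and Slc10a6), where 54.9% of all genes tested differed, and none was higher. In the colon 5 of 7 were lower than in the ileum, the same 4 and Slc51a, where 52.2% of all genes differed. Between colon and cecum 1 of 7 differed, Slc10a6, where 47.2% of all genes did. So large a share of all genes differed between regions that these counts do not set the genes apart.

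Fabp6 had 219, 1048, 4272 and 1849 CPM in ileum controls 1, 2, 3 and 5. It had 0.128, 0.966, 8.25 and 0.952 CPM in cecum controls 1, 2, 4 and 5, and 1.08 to 24.2 CPM in the 5 colon controls (median 14.7). No cecum or colon library reached the lowest ileum control, and within the ileum the controls themselves spread widely. The log2 difference was -9.52 ± 1.49 (SE) for cecum minus ileum (edgeR adjusted p = 0.00021) and -7.12 ± 1.19 for colon minus ileum (edgeR adjusted p = 0.000405). Fgf15, the hormone, had almost no counts outside the ileum. Its 4 ileum controls held 234, 496, 335 and 570 counts, while the 4 cecum controls held 0, 0, 1 and 0 counts and the 5 colon controls 1, 4, 0, 2 and 0. With so few counts no fold is given, and the edgeR adjusted p was 1.6e-08 against the cecum and 8.4e-09 against the colon.

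The uptake carrier and the receptor were also well expressed in the large intestine. Slc10a2 had 40.4, 123, 452 and 253 CPM in the 4 ileum controls, 83.4, 69.1, 93.6 and 97.4 CPM in the cecum controls, and 9.23 to 418 CPM in the colon controls (median 164). The ranges of ileum and colon overlapped almost entirely, and the second highest of the controls after ileum control 3 was colon control 1. Neither region differed from the ileum by test (log2 difference -1.34 ± 1.03 in cecum and -0.39 ± 0.96 in colon, edgeR adjusted p = 0.293 and 0.757). Nr1h4, encoding FXR, averaged 114 ± 46.4 CPM (SD, n = 4) in ileum, 121 ± 10.5 (n = 4) in cecum and 135 ± 57.6 (n = 5) in colon controls. Its differences from the ileum were 0.08 ± 0.34 in cecum and 0.25 ± 0.32 in colon, and neither passed edgeR's test (adjusted p = 0.862 and 0.543).

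Both chains of the export carrier had lower means outside the ileum, and Slc51b passed the test in both regions. Slc51b averaged 63.5 ± 15.6 CPM (SD, n = 4) in ileum, 7.84 ± 0.465 (n = 4) in cecum and 12.4 ± 5.08 (n = 5) in colon controls. It was lower by 3.03 ± 0.30 on the log2 scale in cecum, an 8.14-fold difference, and by 2.35 ± 0.26 in colon (edgeR adjusted p = 2.23e-06 and 9.26e-06). Slc51a averaged 617 ± 181 CPM in ileum, 143 ± 10.2 in cecum and 95.0 ± 119 in colon. Its fit gave -2.12 ± 1.10 for the cecum, which missed the threshold (edgeR adjusted p = 0.124), and -2.70 ± 1.03 for the colon, which passed (0.0457). That call was lost without any 1 of the 4 ileum or 4 cecum controls or of colon controls 2, 4 and 5 (edgeR adjusted p between 0.0588 and 0.089). All 4 cecum values of Slc51a, 129 to 152 CPM, nevertheless lay below the lowest ileum control at 449 CPM. The cecum difference was called in 2 of 20 alternatives. These were limma voom (-2.10, adjusted p = 0.0474) and the edgeR fit without colon control 3 (-2.15, adjusted p = 0.029). The colon controls are part of the same fit. In the colon controls Slc51a ranged from 0.453 to 294 CPM.

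Slc10a6 was low everywhere. Its mean was 5.35 ± 0.985 CPM (SD, n = 4) in ileum, 1.15 ± 0.439 (n = 4) in cecum and 1.92 ± 0.428 (n = 5) in colon controls. It was lower by 2.22 ± 0.28 in cecum and by 1.48 ± 0.24 in colon (edgeR adjusted p = 1.15e-05 and 0.000169). The colon exceeded the cecum by 0.75 ± 0.27 (edgeR adjusted p = 0.0359), a call that was lost without cecum control 1 or 2 or colon control 2, 3 or 4 (0.0509 to 0.11). Nr0b2, encoding SHP, had 8, 13, 16 and 3 counts in the ileum controls, 0 to 2 counts in each cecum and colon control, and too few to pass the filter. With no filter edgeR called it lower in the cecum and in the colon (adjusted p = 0.0026 and 0.0018), and Slc51a was then not called in the colon (0.0962).

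Arsenic feed in the ileum was accompanied by lower Slc10a6 in every library, while the bile acid binding protein and uptake carrier showed no common direction. Of the 7 genes tested 1 was called, Slc10a6, and 7.3% of all genes tested were called. Slc10a6 had 6.78, 5.22, 4.69 and 4.72 CPM in controls 1, 2, 3 and 5, and 1.6, 1.43, 1.43, 1.67 and 1.26 CPM in arsenic 11 to 15. The 5 arsenic libraries lay close together and none reached the lowest control. Slc10a6 fell by 1.89 ± 0.19 (SE) on the log2 scale, a 3.70-fold difference (edgeR adjusted p = 0.0023). Leaving out each ileum library in turn, or arsenic 14 and 15 together, kept the call (log2 change -1.94 to -1.72, edgeR adjusted p at most 0.0147).

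Fgf15 was lower in all 5 arsenic libraries than in any control but missed the threshold. The controls had 13.2, 28.1, 20.9 and 30.6 CPM, and arsenic 11 to 15 had 9.71, 0.715, 8.29, 0.161 and 0.28 CPM. The arsenic libraries formed a higher pair, 11 and 13, and 3 libraries with 3 to 11 counts each. The change was -2.60 ± 0.94 (edgeR adjusted p = 0.126). Slc51b, the β chain of the exporter, had 48.6, 63.7, 85.0 and 56.6 CPM in the controls and 40.7, 41.5, 53.9, 25.5 and 34.6 CPM on arsenic. Only arsenic 13 exceeded the lowest control, and the change was -0.73 ± 0.21 (edgeR adjusted p = 0.0642). DESeq2, limma voom, the joint fit of all libraries and the ileum fit without arsenic 13 called Slc51b lower (adjusted p = 0.0248, 0.0303, 0.0367 and 0.0402). Limma voom and the joint fit also called Fgf15 lower (0.0147 and 0.0104).

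The other 4 tested genes showed no call. Fabp6 had 3879, 982, 4180, 6.13 and 1.33 CPM in arsenic 11 to 15, so the arsenic libraries held values near the highest control and values far below the lowest. Its highest ileum library exceeded the lowest 3208-fold. Slc10a2 had 237, 92.2, 460, 8.12 and 4.28 CPM in the same libraries, in the same order as Fabp6. Their changes were -0.06 ± 1.65 and -0.47 ± 1.18, with edgeR adjusted p of 0.988 and 0.851. Without arsenic 14 and 15 they were 0.70 ± 0.93 and 0.27 ± 0.84, still without a call (edgeR adjusted p = 0.699 and 0.883). Slc51a spread less, 302 to 964 CPM on arsenic against 449 to 839 CPM in controls (change -0.18 ± 0.34, edgeR adjusted p = 0.792). Nr1h4 had 112, 58.0, 167, 32.1 and 31.3 CPM on arsenic and 63.1, 101, 175 and 117 CPM in controls (change -0.54 ± 0.53, edgeR adjusted p = 0.581). Nr0b2 had 0, 3, 1, 1 and 4 counts on arsenic against the 8, 13, 16 and 3 of the controls. It was tested only when no filter was applied, with a change of -2.40 (edgeR adjusted p = 0.0608).

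**Figure D2:**
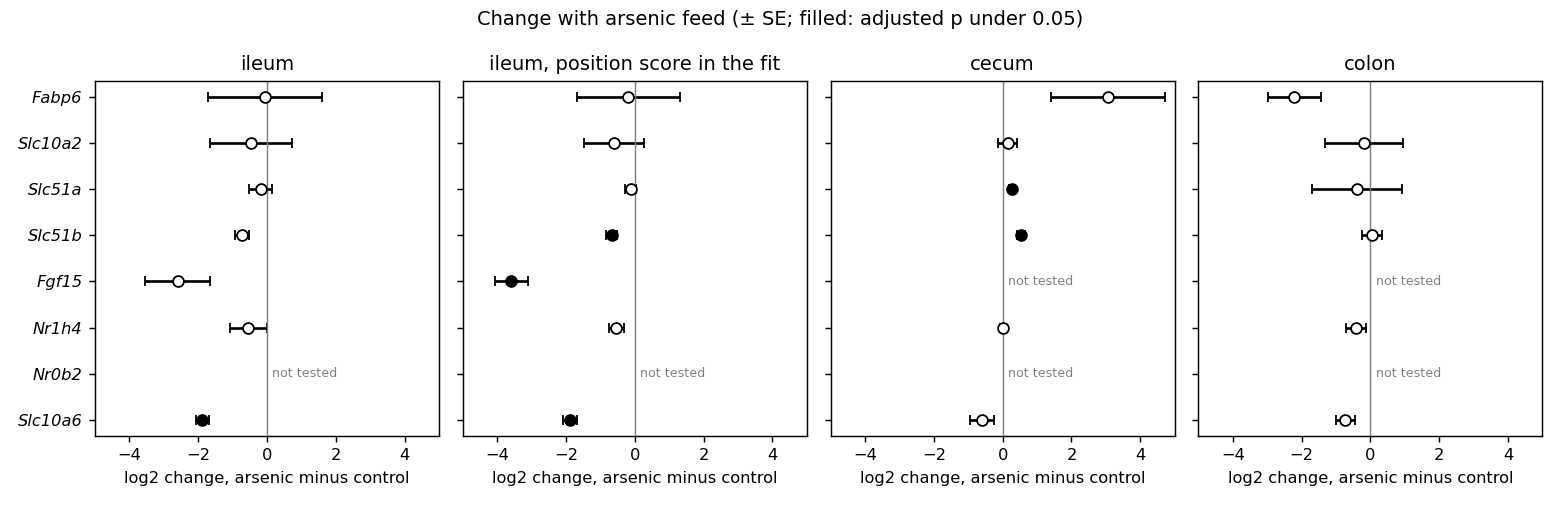
Log2 change of each gene with arsenic feed (x axis, bars ± SE) in the ileum, in the ileum with the position score in the fit, in the cecum and in the colon. Filled points passed an adjusted p of 0.05: Slc10a6 in the ileum, Slc51b, Fgf15 and Slc10a6 with the position score, and Slc51a and Slc51b in the cecum.

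Putting the position score into the ileum fit changed which genes were called. With it 3 of the 7 genes were lower, where 9.26% of all genes tested were called. Fgf15 changed by -3.59 ± 0.48, with an edgeR adjusted p of 0.00781, Slc51b by -0.67 ± 0.17 (0.0349) and Slc10a6 by -1.89 ± 0.20 (0.0024). Fabp6 and Slc10a2 remained without a call (-0.19 ± 1.51 and -0.61 ± 0.88). The fit used 1 slope of the score for both feeds. No arsenic library scored within the control range of 0.40 to 1.79, so these changes rest on that slope, and whether it was shared was not tested. In arsenic 11 and 13, whose position scores exceeded every control, Fabp6 was 3879 and 4180 CPM and Fgf15 was 9.71 and 8.29 CPM. Arsenic 12, with the lowest position score of the 9 libraries (-0.62), had Fabp6 at 982 CPM and Fgf15 at 0.715 CPM. With arsenic 14 and 15 left out, where 4.08% of all genes were called, Slc10a6 was the only one of the 7 called (-1.85 ± 0.23, edgeR adjusted p = 0.00928), and Fgf15 changed by -1.88 ± 0.69 (0.163).

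**Figure D3:**
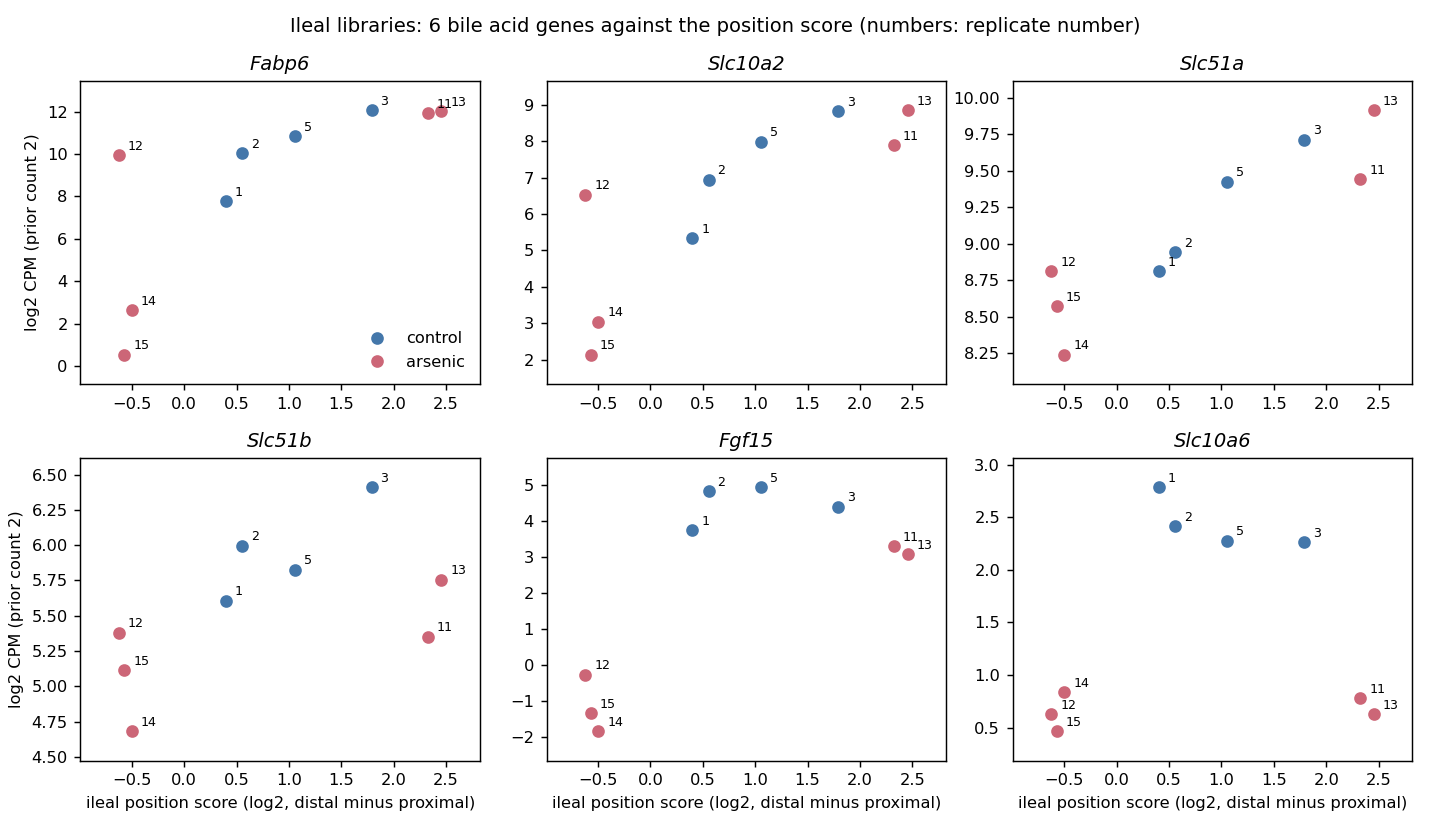
Log2 CPM (prior count 2, y axis) of 6 genes against the ileal position score (x axis, log2 units) in the 4 control and 5 arsenic ileum libraries, with replicate numbers beside the points. Slc51a and Slc10a2 tended to be higher at higher scores, though arsenic 12, with the lowest score, exceeded arsenic 14 and 15 in both genes. Arsenic Fgf15 lay below the controls at both ends, and arsenic Slc10a6 lay between 1.26 and 1.67 CPM at either end of the score.

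Over the 9 ileum libraries, 19 relations were computed in all with those of the cecum and colon below, each with an exact permutation p over all 362880 orderings and Benjamini-Hochberg adjustment over the 19. Anpep and Hoxb13, the partners used in the cecum and colon, were each taken from a longer marker list. The adjustment does not cover that choice. Slc10a2 followed Fabp6 most closely (Pearson r = 0.983, permutation p = 2.2e-05, adjusted 0.000419; Spearman rho = 0.967, permutation p = 0.000165, adjusted 0.00157). Without arsenic 14 and 15, the libraries farthest from the median of Fabp6, r was 0.960, and after removing the mean of each feed it was 0.981. Nr1h4 also followed Fabp6 (r = 0.923, permutation p = 0.000223, adjusted 0.00212; rho = 0.967, permutation p = 0.000165, adjusted 0.00157; r = 0.838 without those libraries). Slc51a gave r = 0.834 (permutation p = 0.00211, adjusted 0.00668) and rho = 0.950 (permutation p = 0.000353, adjusted 0.00168), with r = 0.862 without them. For Slc51b and Fgf15, r with Fabp6 after removing the mean of each feed was 0.750 and 0.858. Without arsenic 14 and 15, both relations were far weaker. For Slc51b, r was 0.732 (permutation p = 0.0238, adjusted 0.0377; rho = 0.700, permutation p = 0.0433, adjusted 0.0632) and 0.280 without them. For Fgf15, r was 0.785 (permutation p = 0.017, adjusted 0.0294; rho = 0.550, permutation p = 0.133, adjusted 0.180) and 0.113 without them. For Slc10a6 no relation to Fabp6 passed the test (r = 0.322, permutation p = 0.408; rho = 0.0833, permutation p = 0.843). Its r was -0.506 without arsenic 14 and 15 and -0.0773 after removing the mean of each feed.

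Against the position score, which shares no gene with the 8, the exporter chain Slc51a gave r = 0.914 (permutation p = 0.000816, adjusted 0.00387; rho = 0.917, permutation p = 0.00131, adjusted 0.00415). Without arsenic 11 and 13, the libraries farthest from the median score, r was 0.907. Nr1h4 gave r = 0.884 (permutation p = 0.00272, adjusted 0.00738) and rho = 0.867 (permutation p = 0.00451, adjusted 0.00952), with r = 0.925 without those libraries. Slc10a2 gave r = 0.817 (permutation p = 0.00773, adjusted 0.0163) and rho = 0.850 (permutation p = 0.00607, adjusted 0.0105), with r = 0.809 without them. Fabp6 gave r = 0.761 (permutation p = 0.0135, adjusted 0.0256) and the same rho of 0.850, with r = 0.726 without them. Fgf15, Slc51b and Slc10a6 gave r = 0.697, 0.564 and 0.127, none of which passed adjustment over the 19 (permutation, adjusted p = 0.0585, 0.134 and 0.732). Without arsenic 11 and 13 these became 0.869, 0.891 and 0.797. The arsenic libraries then left all scored below every control, so score and feed cannot be told apart among the libraries left. The same holds for the r of the other genes without arsenic 11 and 13. After removing the mean of each feed, r with the score was 0.913 for Fgf15, 0.677 for Slc51b and -0.0726 for Slc10a6. Each feed alone has 5 libraries or fewer, too few for a correlation of its own.

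The genes with patterns most like these over the 9 ileum libraries were ranked by Pearson r of log2 CPM among 9178 genes of at least 10 CPM. They are given as a description, since all points share libraries. Gnpnat1 was among the nearest 5 of both Fabp6 and Slc10a2 (r = 0.942 and 0.968, and 0.978 and 0.959 without arsenic 14 and 15). So were ccdc198 (0.973 and 0.968) and Gimap9 (0.968 and 0.966). Suox was nearest to Slc10a2 at 0.972. Slc13a1, a sodium sulphate carrier, was nearest to Nr1h4 at 0.983 and among the 5 nearest to Slc51a at 0.963. Tmem117 and Plscr1 also stood among the 5 of both Slc51a and Nr1h4. Pof1b and Insig2 were nearest to Slc51b (0.975 and 0.967), and Ang, on the list of reported FXR targets, was also among its 5 at 0.964. Ccnt2 and Slc34a2, a phosphate carrier, were nearest to Fgf15 (0.964 and 0.956). Ypel2 and P4ha1 were nearest to Slc10a6 (0.980 and 0.975). No gene stood in the nearest 5 of both Slc10a6 and another of the 8.

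Markers of other cells were read beside these results. The smooth muscle score, the mean log2 CPM of 8 contractile genes, was 7.48 to 8.40 in ileum controls and 7.39 to 7.65 on arsenic, and the summed level of the list was 3320 to 6376 CPM and 3395 to 3729 CPM. Slc10a6 was highest in control 1, which also had the highest smooth muscle score. With that score in the fit, chosen after seeing the data, Slc10a6 was still lower (-1.66, edgeR adjusted p = 0.0284). Of all genes 22 were then called, against 1190 without the score. The B cell follicle score ran from -0.83 to 5.56 in the ileum and was lowest in arsenic 15 and 14 and control 1, the 3 libraries with the lowest Fabp6, and its part in the result was not tested. A clock score was read as well. It was the mean log2 CPM of 9 repressors and outputs such as Dbp and Per1 minus that of 4 activators such as Arntl, and ran from 0.00 to 1.01 in ileum controls and from 0.68 to 2.13 on arsenic, with overlap. With that score in the fit, also chosen after seeing the data, 0 of all genes were called, so the loss of a call is not particular to any gene. Slc10a6 then had a change of -1.97 (edgeR adjusted p = 0.0783) and Fgf15 one of -0.72 (0.752).

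Arsenic feed in the cecum was accompanied by higher levels of both exporter chains. Of the 6 genes tested 2 were called, both higher, while 25.2% of all genes tested were called, so the share among these genes was near that of the whole table. Slc51b had 8.26, 7.6, 8.18 and 7.3 CPM in controls 1, 2, 4 and 5 and 13.2, 11.1, 9.74, 11.6 and 9.37 CPM in arsenic 11 to 15. Every arsenic library exceeded every control. Slc51b rose by 0.53 ± 0.13 on the log2 scale, a 1.44-fold difference (edgeR adjusted p = 0.00715), and kept its call without each cecum library in turn (at most 0.0246). Slc51a had 148, 129, 144 and 152 CPM in the controls and 170, 173, 133, 192 and 174 CPM on arsenic, where arsenic 13 lay within the control range. It rose by 0.27 ± 0.08 (edgeR adjusted p = 0.0287), but the call was lost without arsenic 11, 12 or 14 or control 1, 2 or 4 (0.0545 to 0.0867). Neither was called when all 27 libraries shared 1 fit (edgeR adjusted p = 0.214 for Slc51b and 0.903 for Slc51a). The changes there were similar, 0.49 and 0.24. That fit takes 1 spread per gene from all regions. The highest Slc51a value exceeded the lowest 1.49-fold among cecum libraries and 649-fold among colon libraries.

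The cecal clock score was 1.01 to 1.56 on arsenic and -0.49 to 0.38 in controls. These ranges did not overlap, so the score and the feed cannot be told apart. With the score in the fit the change of Slc51b was 0.93 (edgeR adjusted p = 0.29) and that of Slc51a was 0.13 (0.873). Of all genes 15 were then called, against 3933 without the score. Scores of other markers in the cecum stand beside these values. The large intestine score was 5.13 to 5.20 on arsenic and 5.31 to 5.49 in controls, without overlap, and the summed level of its list was 29734 to 34778 CPM against 34935 to 43267 CPM. The B cell follicle score was 0.10 to 4.61 on arsenic and -1.19 to 2.31 in controls (summed level 10.2 to 209.7 and 2.82 to 43.9 CPM). With overlapping ranges too, the T cell score was 1.93 to 2.66 and 1.51 to 2.06, and the smooth muscle score 7.40 to 8.12 and 7.30 to 7.68 (summed levels 30.8 to 52.6 and 24.5 to 36.8 CPM, and 2982 to 4981 and 2590 to 3622 CPM). The part of these markers in the change of the exporter chains was not tested.

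Fabp6 in the cecum was low but uneven. Arsenic 11 to 15 had 0.319, 20.9, 10.6, 70.0 and 0.205 CPM against 0.128 to 8.25 CPM in controls, a change of 3.06 ± 1.66 that was not called (edgeR adjusted p = 0.222). Across the 9 cecum libraries Fabp6 followed Anpep, a brush border peptidase abundant in the small intestine (r = 0.900, permutation p = 0.000383, adjusted 0.00243; rho = 0.817, permutation p = 0.0108, adjusted 0.0171). Without arsenic 12 and 14, those farthest from the median of Anpep, r was 0.863. Arsenic 14 had the highest Fabp6 and the highest Anpep, 281 CPM, where the other 8 libraries had 13.3 to 79.3 CPM and ileum libraries 5310 CPM or more. Slc10a2 averaged 93.0 ± 36.0 CPM (SD, n = 5) on arsenic and 85.9 ± 12.6 (n = 4) in controls (change 0.15 ± 0.28, edgeR adjusted p = 0.735). Nr1h4 averaged 118 ± 11.8 and 121 ± 10.5 CPM (change 0.00 ± 0.08, edgeR adjusted p = 0.975). Slc10a6 averaged 0.733 ± 0.293 and 1.15 ± 0.439 CPM, with overlapping ranges (change -0.60 ± 0.36, edgeR adjusted p = 0.239). Fgf15 had 0 to 2 counts and Nr0b2 0 to 5 counts in each cecum library.

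In the colon no member was called with arsenic feed, 0 of the 6 tested, where 0.649% of all genes tested were. At an unadjusted edgeR p under 0.05 there were 2, Fabp6 and Slc10a6, and DESeq2 and limma voom also called 0. Fabp6 had 14.7, 24.2, 1.08, 20.5 and 6.09 CPM in controls 1 to 5 and 1.22, 4.85, 2.5 and 2.82 CPM in arsenic 11, 12, 13 and 15. Control 3 lay at the level of the arsenic libraries and the other controls above them (change -2.21 ± 0.78, edgeR adjusted p = 0.235). Slc10a6 had 1.43, 2.46, 2.21, 1.94 and 1.57 CPM in the controls and 1.11, 0.678, 1.51 and 1.3 CPM on arsenic (change -0.73 ± 0.27, edgeR adjusted p = 0.242). Slc51b averaged 12.4 ± 5.08 CPM (SD, n = 5) in controls and 12.8 ± 1.98 (n = 4) on arsenic, a change of 0.06 ± 0.29 (edgeR adjusted p = 0.963). The colonic clock score, 1.33 to 2.39 on arsenic and 0.10 to 0.98 in controls, again did not overlap between feeds.

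The spread of the carriers within the colon was wider than any difference between feeds. Slc51a had 294, 101, 0.453, 8.59 and 71.0 CPM in controls 1 to 5 and 7.43, 138, 39.7 and 102 CPM in arsenic 11, 12, 13 and 15. Slc10a2 had 418, 229, 9.23, 11.7 and 164 CPM in the same controls and 17.8, 283, 87.8 and 194 CPM in the same arsenic libraries. Controls 3 and 4 and arsenic 11 were the low libraries for both genes, and control 1 was the highest for both. Their changes with feed were -0.39 ± 1.31 and -0.18 ± 1.13 (edgeR adjusted p = 0.939 and 0.968). Without control 1 they were 0.68 and 0.51, again with no call. Hoxb13, a homeobox gene of the distal colon, gave these libraries an order without using the members. It had 239, 222 and 162 CPM in the 3 low libraries, 0 counts in control 1, and 40.2 to 91.4 CPM in the other 5. Hoxb13 is 1 of the 10 large intestine markers. The score of that list was also high in the 3 low libraries (7.53 to 7.92) and lowest in control 1 (3.89). Its summed level ran the other way, 6738 to 7530 CPM in those 3 and 13430 CPM in control 1. The other 5 had scores of 6.54 to 7.16 and summed levels of 8382 to 11415 CPM. The order thus depends on the marker chosen.

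Slc10a2 fell with Hoxb13 across the 9 colon libraries (r = -0.721, permutation p = 0.00406, adjusted 0.00964; rho = -0.950, permutation p = 0.000353, adjusted 0.00168). Without controls 1 and 3, the libraries farthest from the median of Hoxb13, r was -0.942. Slc51a gave r = -0.700 (permutation p = 0.0646, adjusted 0.0818) and rho = -0.917 (permutation p = 0.00131, adjusted 0.00415), with r = -0.920 without those libraries. Slc51b gave r = -0.703 (permutation p = 0.0642, adjusted 0.0818) and rho = -0.900 (permutation p = 0.00203, adjusted 0.00551), with r = -0.794 without them. Nr1h4, whose controls ranged from 72.3 to 207 CPM, gave r = -0.815 (permutation p = 0.00109, adjusted 0.00415) and rho = -0.883 (permutation p = 0.00308, adjusted 0.0073), with r = -0.786 without them. Fabp6 showed no such relation (r = -0.408, permutation p = 0.31; rho = -0.483, permutation p = 0.194; r = 0.0201 without them). After removing the mean of each feed, r was -0.763 for Slc10a2, -0.754 for Slc51a and -0.811 for Nr1h4.

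**Figure D4:**
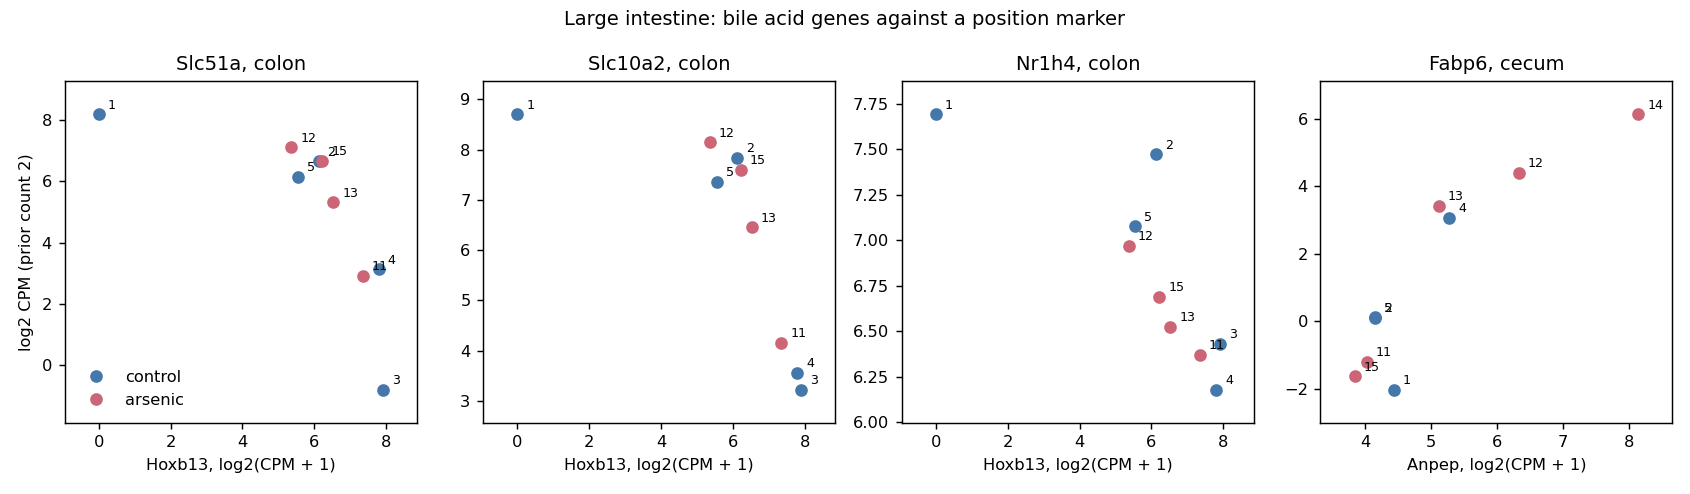
Log2 CPM (prior count 2, y axis) of Slc51a, Slc10a2 and Nr1h4 against Hoxb13 in the 9 colon libraries, and of Fabp6 against Anpep in the 9 cecum libraries (x axes, log2 of CPM plus 1), with replicate numbers. Controls 3 and 4 and arsenic 11 join high Hoxb13 with low carriers, control 1 has no Hoxb13, and cecum arsenic 14 holds the most Anpep and Fabp6.

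Whether the arsenic effect differed between regions was tested in 1 fit of all 27 libraries. With both degrees of freedom over the 3 regions, 0 of the 7 genes tested were called, where 7.62% of all genes were. The lowest values were those of Slc51b (edgeR adjusted p = 0.0621) and Slc10a6 (0.0636), the 2 that had an unadjusted p under 0.05. DESeq2 called 2 of the 7 and limma voom 1, but they also called more of all genes, 1837 and 2181 against 1353 with edgeR. The single contrast of the cecum effect minus the ileum effect was added after seeing the data and called 2 of the 7, where 11.4% of all genes were called. Slc51b differed by 1.18 ± 0.34 (edgeR adjusted p = 0.0232), being higher with arsenic in the cecum and not called in the ileum. Slc10a6 differed by 1.21 ± 0.40 (edgeR adjusted p = 0.0467), its fall in the ileum being the larger. Without ileum arsenic 14 and 15, neither difference passed (0.973 with edgeR adjusted p = 0.0772 for Slc51b, 1.20 with 0.0882 for Slc10a6). Both also missed it with no filter (0.0571 and 0.0907) and with the replicate number as a block (0.0914 and 0.0760). Slc51b lost the call without ileum control 3 (0.0598). Slc10a6 lost it without any 1 of ileum controls 1, 2 and 3, ileum arsenic 12 to 15, cecum controls 1, 2 and 4, cecum arsenic 13 to 15, colon controls 3 and 4 or colon arsenic 11 and 15 (edgeR adjusted p between 0.0506 and 0.117).

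Beyond the 8 genes, 94 others of the bile acid pathway were followed in 5 lists of carriers, regulators, receptors, synthesis and detoxification enzymes, and reported FXR targets. In the ileum 6 of 78 tested were higher with arsenic and none lower, against the 7.3% of all genes called. This split was not stable, being 3 higher and 5 lower without arsenic 14 and 15, and 9 higher and 2 lower with the position score in the fit. In the fit of all 9 libraries without that score, the median change was 0.06 where that of all genes was 0.00. The 2 called carriers were Abcc3, a basolateral exporter of bile acid conjugates (47.3 ± 3.65 CPM in controls, n = 4, and 77.0 ± 9.50 on arsenic, n = 5; change 0.66 ± 0.11, edgeR adjusted p = 0.0102), and Slco2b1, an organic anion carrier (30.0 ± 5.61 and 51.0 ± 8.76 CPM; 0.72 ± 0.15, 0.0221). Rxra, the partner that binds DNA with FXR, rose from 115 ± 16.5 to 205 ± 33.3 CPM (0.79 ± 0.14, edgeR adjusted p = 0.0128). Cdx2, an intestinal homeobox regulator, rose from 124 ± 19.6 to 225 ± 33.9 CPM (0.82 ± 0.14, edgeR adjusted p = 0.0125). Fgfr3, an FGF receptor, rose from 12.7 ± 2.25 to 22.6 ± 5.67 CPM (0.79 ± 0.20, edgeR adjusted p = 0.0385). The Fgfr3 call was lost without any 1 of the 4 controls or of arsenic 11 and 14 (edgeR adjusted p between 0.0534 and 0.117). That of Slco2b1 was lost without control 1, 2 or 3 (0.0596 to 0.0906), and those of Abcc3, Rxra and Cdx2 without control 2 (0.0522 to 0.0646). Of the 11 tested reported FXR targets outside the 8, edgeR called 0 in the ileum (3 at an unadjusted p under 0.05), and 1 higher and 2 lower with the position score in the fit. The count of 6 moved to between 0 and 14 under the alternatives given in the closing section, and was 13 without arsenic 15 and 3, 0 and 3 without controls 1, 2 and 3.

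In the cecum 9 of 69 pathway genes were higher and 10 lower with arsenic, against the 25.2% of all genes called. Regulators were the largest group, with 3 higher and 7 lower of 23 tested. Hnf4a, a nuclear receptor of the epithelium, fell from 1613 ± 50.4 to 1116 ± 97.6 CPM (-0.49 ± 0.07, edgeR adjusted p = 0.00023). The coregulators Ncor1, Ncoa3 and Ncoa1 fell by 0.37, 0.41 and 0.34 in log2 units (with edgeR adjusted p of 0.000525, 0.000587 and 0.0029). Acox2, a peroxisomal oxidase of bile acid side chains, rose by 0.77 ± 0.12 from 14.2 ± 1.92 to 23.7 ± 3.39 CPM (edgeR adjusted p = 0.000366). Cdx2 was lower by 0.39 in the cecum (edgeR adjusted p = 0.00528) while it was higher in the ileum, and its effects differed by -1.29 (0.00606). In the colon 0 of 79 pathway genes were called, where 0.649% of all genes tested were, so few calls were to be had. DESeq2 and limma voom called 1 each, with 656 and 598 of all genes called. At an unadjusted edgeR p under 0.05 there were 10. For counts at an unadjusted p, here and above, the share of all genes was not computed.

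On control feed 31 of 79 pathway genes were higher and 32 lower in cecum than in ileum, where 54.9% of all genes differed. Abcc3 rose from 47.3 ± 3.65 CPM in ileum to 879 ± 35.5 in cecum (4.21 ± 0.14, edgeR adjusted p = 5.51e-11), whereas Abcc2, its apical relative, fell from 290 ± 37.8 to 2.73 ± 1.33 CPM (-6.75 ± 0.33, 4.03e-09). Fgfr2, an FGF receptor, was 42.0 ± 3.34 CPM in ileum and 337 ± 29.7 in cecum (edgeR adjusted p = 1.04e-09). Hnf4g and the cholesterol exporter Abca1 were lower by 3.85 ± 0.22 and 3.45 ± 0.21 (edgeR adjusted p = 5.91e-09 and 1.01e-08). Enzymes of synthesis and detoxification were mostly lower, 11 of 18 tested against 4 higher, with a median difference of -0.80 where that of all genes was -0.03.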

How the data were processed

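Poly-A RNA of ileum, cecum and colon was sequenced as 150-base read pairs, per the labels' protocols. Tools named, without their roles, in the submitters' processing notes are HTSeq 0.6.0, HISAT2 2.1.0, DESeq2 1.6.3 and SAMtools, and the genome build, annotation and strand setting are not given in the sources used here. The deposited file holds raw counts per gene, made by the authors, for 52550 Ensembl genes, of which 52403 matched a symbol. From these counts edgeR 4.0.16 (R 4.3.3) was run with its filter at a minimum count of 10, TMM scaling and the robust quasi-likelihood test. Each region was fitted alone for feed, 13 control libraries together for regions, and all 27 for the interaction. CPM and log2 CPM (prior count 2) were computed over all 27 libraries. Without strand, reads of overlapping genes cannot be told apart. The fits were tested on simulated data with known changes. DESeq2 1.42.0 and limma 3.58.1 were alternatives, with those in the closing section. The 8 genes and all lists were chosen with earlier results of these data known. Named in the text were all 8 genes, the 5 called list genes with the smallest p in a comparison, and the 5 genes most like each of the 7 with a mean of at least 1 CPM in the ileum. Promoter windows are from RefSeq.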

Additional observations from a re-analysis of the deposited data

Results flagged for a closer look

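In 48 groups of 4 or 5 libraries, 1 value lay far from the rest of its group in 3 cases. The limit used flags about 1 group in 20 by chance where values are normally distributed, which was not checked for these CPM. Fabp6 was 8.25 CPM in cecum control 4, where the other 3 controls had at most 0.966 CPM. Fgf15 was 0.0705 CPM in the same library and 0.0520 CPM in colon arsenic 13, each from 1 count where the rest of the group had 0. The rule always flags such a group.

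The arsenic effect differed between cecum and ileum, by the single contrast added after seeing the data, for Slc51b (a log2 difference of 1.18, edgeR adjusted p = 0.0232) and Slc10a6 (1.21, edgeR adjusted p = 0.0467). The test over all 3 regions called neither (0.0621 and 0.0636). Neither contrast was called with no filter (0.0571 and 0.0907) or with the replicate number as a block (0.0914 and 0.0760).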

How the results depend on the processing

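Of 1603 recomputed values, 1420 kept their direction and their side of the threshold (for counts, stayed within 1.5 times), and where the others moved the cause was not tested. In the ileum, where 1 of 7 members was called by edgeR at a 5% false discovery rate, DESeq2 called 2 and limma voom with sample weights 3. The joint fit of all 27 libraries and the position covariate each called 3, the clock covariate called 0, and leaving out 1 library gave 1 to 2. In the cecum, where 2 of 6 were called, voom called 1, the joint fit 0 and the clock covariate 0, with 1 to 2 on leaving out 1 library. No setting called a member in the colon. Between control colon and cecum, where 1 was called, upper-quartile scaling gave 2, DESeq2 3, voom 2 and no filter 0, with 0 to 2 on leaving out 1 library. For the difference of the diet effect between regions, where 0 of 7 were called, upper-quartile scaling and DESeq2 gave 2 each, voom 1, the single contrast of ileum against cecum 2, and leaving out 1 library 0 to 1. The clock covariate, the smooth muscle covariate and the single contrast were chosen after seeing the data. In that contrast Slc51b was not called with no filter (edgeR adjusted p = 0.0571) and Slc10a6 was not called with no filter (0.0907) or with voom (0.0629). The 2 region comparisons with the ileum stayed at 4 to 5 members under every setting run. With no filter Nr0b2 was added in both and Slc51a was lost in the colon.

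Counts over all genes moved more. In the ileum edgeR called 1190, against 2105 with DESeq2, 2138 with voom, 2889 in the joint fit, 22 with the smooth muscle covariate, 0 with the clock covariate and 121 without control 2. In the cecum 3933 became 2021 in the joint fit and 15 with the clock covariate. In the colon 107 became 656 with DESeq2, 598 with voom, 493 in the joint fit, 0 with the clock covariate, 351 without control 1 and 6 without arsenic 13. For the difference between regions 1353 became 1837 with DESeq2, 2181 with voom, 1092 with upper-quartile scaling, 827 with no filter and 551 without ileum control 2. Of the pathway genes in the ileum, 14 were called by voom and by the joint fit, 11 with the position covariate and 0 with the clock or smooth muscle covariate, and in the cecum 19 became 7 in the joint fit and 0 with the clock covariate.

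The member values that changed sign were not called in either setting. In the ileum, the clock covariate gave log2 changes of 2.91 for Fabp6, 1.85 for Slc10a2, 0.55 for Slc51a and 0.69 for Nr1h4. Leaving out arsenic libraries 14 and 15 together turned the position score difference to 0.44 and gave 0.70 for Fabp6, 0.27 for Slc10a2 and 0.18 for Slc51a. Leaving out 1 library spanned -0.62 to 0.80 for Fabp6, -1.37 to 0.20 for Slc10a2 and -0.47 to 0.0335 for Slc51a. In the cecum, Nr1h4 was -0.00145 with RLE scaling and with DESeq2, -0.00154 with no filter, -0.0335 in the joint fit and -0.0749 with the clock covariate, which also gave -2.66 for Fabp6 and -0.70 for Slc10a2. There, leaving out 1 library spanned -0.0584 to 0.279 for Slc10a2 and -0.0551 to 0.0532 for Nr1h4. In the colon, voom gave 0.96 for Slc10a2 and 1.63 for Slc51a, and the clock covariate gave 0.0290 for Slc10a6. Leaving out 1 colon library spanned -0.73 to 0.51 for Slc10a2, -0.94 to 0.68 for Slc51a and -0.13 to 0.25 for Slc51b. Between control regions, Nr1h4 in cecum against ileum was -0.0850 with upper-quartile scaling and -0.12 to 0.36 on leaving out 1 library, and -0.0151 to 0.35 in colon against cecum. Slc10a2 was -0.17 in colon against cecum with voom, and -1.08 to 0.26 in colon against ileum on leaving out 1 library.

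Libraries of different regions share replicate numbers, but the labels do not say that a number marks an animal. Deviations from the group mean correlated at -0.108 to 0.248 (median 0.120) between libraries with the same number, with 13 of 24 pairs over 0.1. Pairs with other numbers in the same feed gave -0.256 to 0.205 (median -0.0282), with 9 of 97 over 0.1. Of the 27 libraries 18 correlated best with their own number, a hint from the data and not from the design. With the replicate number as a block, 4 members were called in cecum against ileum, 4 in colon against ileum, 0 in colon against cecum and 0 for the difference of the diet effect. The calls lost under the block were Slc51a in colon against ileum (log2 change -3.33, edgeR adjusted p = 0.0777) and Slc10a6 in colon against cecum (0.76, edgeR adjusted p = 0.0814), and in the single contrast of the diet effect Slc51b (1.03, 0.0914) and Slc10a6 (1.20, 0.0760).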
